A study of Drosophila melanogaster with 8 samples.

Results

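Septate junctions are the occluding junctions of fly epithelia and of the glia that ensheath the nervous system. A core complex of adhesion proteins, claudin-like membrane proteins, cytoplasmic scaffolds and the sodium pump lines the lateral membrane below the adherens junction and limits diffusion between cells, and a separate set of proteins seals the corners where cells meet in threes. The genes described here are 10 members of this junction, chosen by symbol for their known function, with earlier results of these data known. They are the adhesion genes Nrx-IV, Cont and Lac, the scaffold genes cora and vari, the claudin-like genes mega, sinu and kune, the sodium pump subunit gene nrv2 and the tricellular junction gene Gli. All 10 were found among the 10844 genes that the platform annotation names, each measured by a single probe set. mega stands in the annotation under its current symbol pck and was matched through its synonym, and it is called pck below.

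The study profiled 3 Drosophila melanogaster cell lines on 8 one-colour Affymetrix arrays of the DrosGenome1 design. RasV12 (3 arrays, passage 12) is a line made from embryos with an oncogenic form of Ras, while L2 (1 array) and CL8 (4 arrays) are lines whose tissue, genotype and passage the labels do not give. All cells were at 70% confluence and every RNA came from its own T-flask. Each group is thus 1 cell line. The sources used here name no promoter for the Ras transgene, and its expression was not checked, since Ras85D is not analysed here. The p-values cover flasks and arrays within a line, not independent lines, and L2, with 1 array, was assumed to vary like the others.

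The values are log2 expression values made by the authors with GCRMA, and a difference of 1 is a doubling of signal. The arrays did not share one distribution: the 75th percentile was 8.09 to 8.17 on RasV12 arrays, 8.32 on the L2 array and 8.96 to 8.99 on CL8 arrays. Each difference is therefore given as deposited and again after quantile normalization of all arrays, called rescaled. Rescaling shifted the difference of single probe sets by a median of 0.08 for RasV12 against CL8. The median shift was -0.29 for L2 against CL8 and 0.33 for RasV12 against L2. For probe sets above the background controls in either line, the median difference between RasV12 and CL8 went from -0.49 to -0.02. A median of 14 decimals was deposited for RasV12 and of 9 for L2 and CL8, so a separate processing run of RasV12 and a difference between lines cannot be told apart. Background was read from 23 control probe sets for transcripts foreign to the fly, the highest of which lay at 3.24 to 3.47 on RasV12 arrays, 4.04 on the L2 array and 2.98 to 3.41 on CL8 arrays. In such cultures, fewer cells that express a gene and less RNA per cell cannot be told apart.

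Most of the septate junction genes were higher in RasV12 than in CL8. Of the 10 genes, 6 rose (Lac, Gli, Nrx-IV, pck, Cont and nrv2), 2 fell (sinu, and vari, which lay within the background throughout) and 2 did not pass the test (cora and kune; limma, Benjamini-Hochberg adjusted p under 0.05 over all probe sets). Over all tested probe sets 11.3% were called higher and 38.6% lower. Rescaled, 8 of the genes were called higher and 2 lower, against 35.5% and 29.8% of all probe sets. The median difference of the 10 genes was 0.98 (1.80 rescaled), and that of all probe sets was -0.08 (0.05 rescaled). Among the 9 genes above the background controls, which leaves out vari, 6 were higher and 1 lower in both scalings, beside 13.6% and 33.5% of the probe sets above the controls in either line. The RasV12 and CL8 arrays did not overlap for 6 genes that lay higher and 2 that lay lower in RasV12, while 17.7% and 38.9% of all probe sets were so separated.

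The genes had no common direction in L2. Against CL8, 1 gene was called higher in L2 (Nrx-IV), 3 were called lower (Gli, cora and pck) and 6 did not pass, where 38.3% of all probe sets were called higher and 23.6% lower. Rescaled, 3 were higher and 3 lower, beside 20.2% and 17.4% of all probe sets. The median of the 10 genes was 0.07 (0.16 rescaled), and that of all probe sets was 0.27 (0.01 rescaled). Against L2, RasV12 had 6 genes higher (Gli, Lac, pck, Cont, cora and Nrx-IV), 2 lower (sinu and vari) and 2 not called (kune and nrv2), in either scaling. Over all probe sets 9.57% were called higher and 44.1% lower in this comparison, and 22.0% and 26.0% rescaled. The median difference of the genes was 1.18 (1.32 rescaled) beside -0.40 (-0.02 rescaled) for all probe sets. These comparisons share arrays, so their counts are not independent of each other. As deposited, RasV12 had the highest mean of the lines for 8 of the 10 genes and for 11.4% of all probe sets. That share was 14.1% among probe sets above the controls in any line, which leaves out vari.

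**Figure D1:**
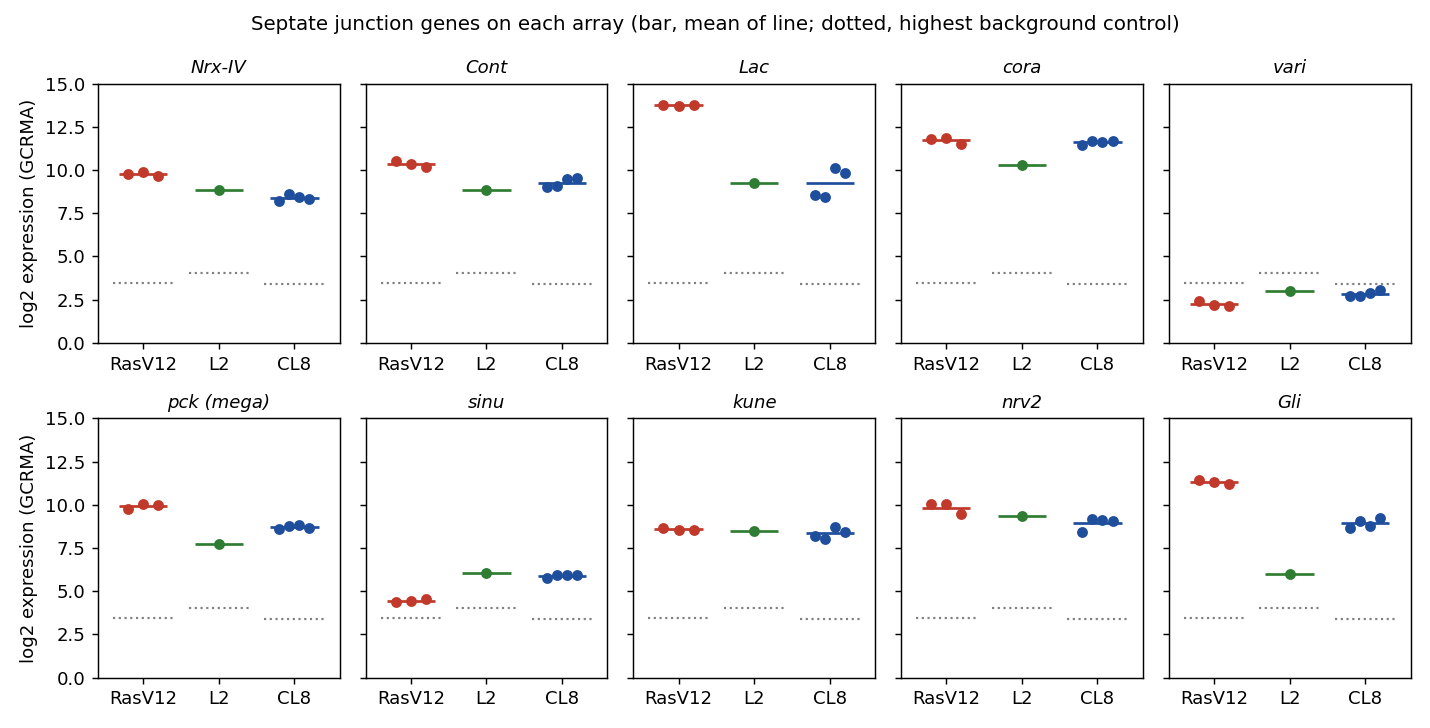
Log2 expression (GCRMA) of the 10 septate junction genes on each array, with RasV12 (3 arrays), L2 (1) and CL8 (4) along the horizontal axis of each panel; points are arrays, bars the mean of a line, and dotted lines the highest background control on any array of the line. Lac and Gli show the widest gaps between lines, the CL8 arrays of Lac lie in 2 pairs, and all points of vari lie below the dotted lines.

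The 3 adhesion genes all rose in RasV12 relative to both other lines, in either scaling. Nrx-IV encodes a neurexin-type transmembrane protein at the core of the junction, whose cytoplasmic tail binds the scaffolds. It read 9.77, 9.89 and 9.68 on the RasV12 arrays, 8.82 on the L2 array, and 8.22, 8.59, 8.42 and 8.32 on the CL8 arrays. All RasV12 arrays lay above the L2 array, which lay above all CL8 arrays. The difference between RasV12 and CL8 was 1.39 ± 0.11 (SE; limma adjusted p = 1.49e-05), or 2.62-fold, and 2.20 rescaled. RasV12 exceeded L2 by 0.95 ± 0.16 (adjusted p = 0.00246; 1.10 rescaled). The small excess of L2 over CL8, 0.44 ± 0.16 (adjusted p = 0.0437; 1.10 rescaled), lost its call when any array but CL8 array 2 was left out (adjusted p of 0.0525 to 0.0768).

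Cont encodes contactin, a membrane-anchored adhesion protein of the immunoglobulin superfamily that acts in a complex with Nrx-IV. Its values were 10.50, 10.36 and 10.18 on RasV12 arrays, 8.86 on the L2 array, and 9.03, 9.07, 9.47 and 9.52 on CL8 arrays. The RasV12 arrays stood above those of both other lines without overlap. Cont was higher in RasV12 than in CL8 by 1.07 ± 0.15 (adjusted p = 0.000461; 1.90 rescaled) and than in L2 by 1.48 ± 0.23 (adjusted p = 0.00155; 1.63 rescaled). L2 and CL8 were not called apart, with a difference of -0.41 (95% interval -0.93 to 0.11) as deposited and 0.27 rescaled, so no direction holds between them.

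Lac, which encodes lachesin, an immunoglobulin-domain adhesion protein needed for the junction in the tracheal tubes, had the largest difference of the 10 genes between RasV12 and CL8. It read 13.74, 13.71 and 13.79 on RasV12 arrays, 9.26 on the L2 array, and 8.56, 8.45, 10.09 and 9.84 on CL8 arrays. The RasV12 arrays were close together, the CL8 arrays lay in a low and a high pair, and the L2 array fell between these pairs. The difference between RasV12 and CL8 was 4.51 ± 0.41 (adjusted p = 3.39e-05; 5.23 rescaled), or 22.8-fold, and only 95 of all probe sets had a more positive one. Against CL8 arrays 1 and 2 alone it was 5.24 and against arrays 3 and 4 alone 3.78. RasV12 exceeded L2 by 4.49 ± 0.62 (adjusted p = 0.000906; 4.54 rescaled). For L2 against CL8 the difference was 0.02 (95% interval -1.37 to 1.41), and its sign turned with the CL8 arrays: it was 0.75 against arrays 1 and 2 (adjusted p = 0.00482) and -0.71 against arrays 3 and 4 (adjusted p = 0.00529).

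The cytoplasmic scaffold genes showed no rise in RasV12 over CL8 that held in both scalings. cora encodes coracle, a protein of the band 4.1 family that binds the tail of Nrx-IV. It read 11.79, 11.88 and 11.49 on RasV12 arrays, 10.32 on the L2 array, and 11.44, 11.66, 11.65 and 11.70 on CL8 arrays. RasV12 and CL8 arrays overlapped, and the L2 array was below all of them. RasV12 and CL8 differed by 0.11 (95% interval -0.16 to 0.38; adjusted p = 0.465), while the rescaled difference of 0.89 was called (adjusted p = 0.00109), so that a call for cora depends on the scaling. L2 was lower than CL8 by a difference of -1.29 ± 0.17 (adjusted p = 0.000752; -0.65 rescaled), and RasV12 was higher than L2 by 1.40 ± 0.18 (adjusted p = 0.000587; 1.54 rescaled).

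vari encodes varicose, a membrane-associated guanylate kinase that also binds Nrx-IV. Its probe set read 2.40, 2.20 and 2.12 on RasV12 arrays, 2.99 on the L2 array, and 2.71, 2.72, 2.87 and 3.08 on CL8 arrays. Every one of these values lay below the highest background control of its array. No fold is given, although limma called it lower in RasV12 than in CL8 (-0.60, adjusted p = 0.00296; -0.65 rescaled) and than in L2 (-0.75, adjusted p = 0.0108; -0.38 rescaled), and vari was the only one of the 10 genes without signal above the controls.

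The claudin-like genes, whose products resemble the claudins of vertebrate tight junctions, differed among themselves: pck was higher in RasV12, sinu was lower and kune had no call that held in both scalings. pck read 9.78, 10.05 and 9.97 on RasV12 arrays, 7.72 on the L2 array, and 8.59, 8.75, 8.84 and 8.65 on CL8 arrays. The lines were fully separated, with RasV12 highest and L2 lowest. pck was higher in RasV12 than in CL8 by 1.23 ± 0.10 (adjusted p = 1.77e-05; 2.05 rescaled) and than in L2 by 2.22 ± 0.15 (adjusted p = 2.88e-05; 2.45 rescaled). L2 was lower than CL8, with a difference of -0.99 ± 0.15 (adjusted p = 0.00122; -0.40 rescaled).

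sinu, which encodes sinuous, ran the other way. Its values were 4.37, 4.42 and 4.56 on RasV12 arrays, 6.06 on the L2 array, and 5.77, 5.92, 5.94 and 5.94 on CL8 arrays, all above the background controls. It was the only gene above the controls that was lower in RasV12, and the RasV12 arrays lay below those of both other lines. The difference was -1.45 ± 0.08 against CL8 (adjusted p = 3.4e-06; -1.21 rescaled), which is 2.72-fold, and -1.61 ± 0.13 against L2 (adjusted p = 6.48e-05; -1.27 rescaled). L2 and CL8 differed by 0.17 (95% interval -0.12 to 0.46; 0.06 rescaled) and were not called.

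kune, which encodes kune-kune, was the most even of the claudin-like genes. It read 8.63, 8.56 and 8.54 on RasV12 arrays, 8.47 on the L2 array, and 8.22, 8.04, 8.71 and 8.45 on CL8 arrays. The L2 array and the RasV12 arrays fell within the range of the CL8 arrays. The difference between RasV12 and CL8 was 0.22 (95% interval -0.14 to 0.58; adjusted p = 0.277) as deposited and 1.02 rescaled (adjusted p = 0.00142). That between L2 and CL8 was 0.12 (95% interval -0.40 to 0.64; 0.75 rescaled, adjusted p = 0.0363), and RasV12 and L2 differed by 0.10 (95% interval -0.44 to 0.64; 0.27 rescaled).

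nrv2 encodes a beta subunit of the sodium and potassium pump, which has a role in the junction beside ion transport. It read 10.03, 10.04 and 9.47 on RasV12 arrays, 9.36 on the L2 array, and 8.40, 9.21, 9.11 and 9.08 on CL8 arrays. The lines did not overlap, but RasV12 array 3 stood close to the L2 array. nrv2 was higher in RasV12 than in CL8 by 0.89 ± 0.23 (adjusted p = 0.0106; 1.71 rescaled), with an adjusted p of 0.049 at most when any single array was left out. Between L2 and CL8 it was not called as deposited (0.41, 95% interval -0.35 to 1.18). The rescaled difference of 1.09 was called higher in L2 (limma adjusted p = 0.0489), so that this call depends on the scaling. Between RasV12 and L2, nrv2 was not called in either scaling (0.48, 95% interval -0.31 to 1.27; 0.62 rescaled).

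Gli encodes gliotactin, a cholinesterase-like transmembrane protein of the tricellular junction, and was the gene that separated all lines most widely. It read 11.44, 11.32 and 11.22 on RasV12 arrays, 5.99 on the L2 array, and 8.66, 9.05, 8.76 and 9.21 on CL8 arrays. RasV12 was highest, CL8 intermediate and L2 lowest, with no overlap. Gli was higher in RasV12 than in L2 by 5.34 ± 0.22 (adjusted p = 2.29e-06; 5.98 rescaled), a 40.5-fold difference that 48 of all probe sets exceeded. Against CL8 it was higher in RasV12 by 2.41 ± 0.14 (adjusted p = 3.69e-06; 3.17 rescaled). L2 was lower than CL8, with a difference of -2.94 ± 0.21 (adjusted p = 4.42e-05; -2.80 rescaled), and 174 probe sets had a more negative one.

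**Figure D2:**
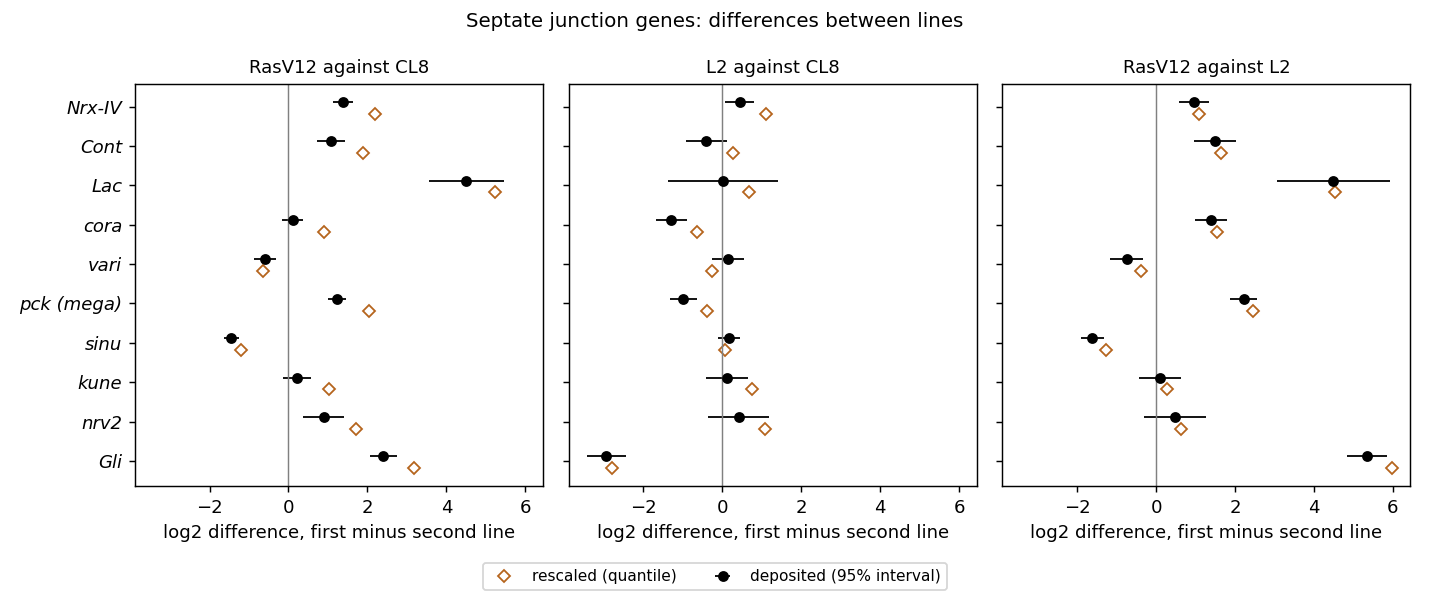
Log2 differences of the 10 genes in each comparison, first minus second line; filled points are deposited values with the 95% interval of the limma fit, and open diamonds are values after quantile normalization. Of the points for RasV12 against CL8, sinu and vari lie left of 0 in both scalings, and cora and kune have intervals that hold 0 as deposited.

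**Figure D3:**
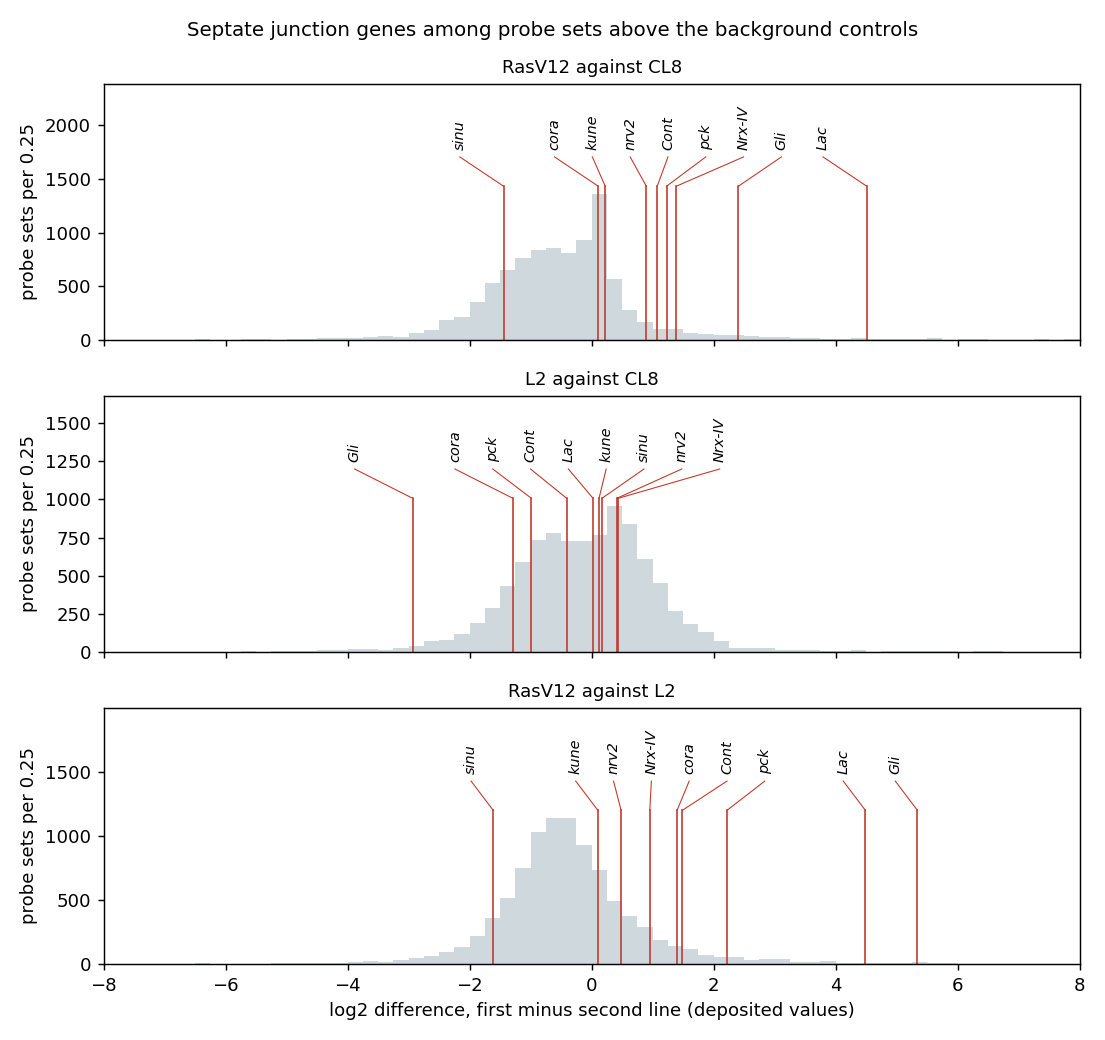
Distribution of log2 differences over the probe sets above the background controls in either line (grey bars, number of probe sets per 0.25 between -8 and 8), with the septate junction genes above the controls as vertical lines. For RasV12 against CL8 the genes other than sinu lie at or right of the peak. For L2 against CL8 the genes lie at or left of it, with Gli at -2.94.

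Within CL8 the genes were not equally steady. The standard deviation over the CL8 arrays was 0.85 for Lac, larger than that of 98.5% of all probe sets, while it was 0.08 for sinu and 0.11 for pck. For Lac, arrays 3 and 4 averaged 9.97 and arrays 1 and 2 averaged 8.51, and this gap of 1.46 was larger in size than that of 99.0% of probe sets. Lac, kune, Cont, vari and sinu were higher on both arrays 3 and 4 than on both arrays 1 and 2, so 5 of 10 genes, and 51.7% of all probe sets did the same. The same arrays differed in the middle 18S ribosomal RNA control, at 15.33 and 14.53 for arrays 3 and 4 and at 10.13 and 9.50 for arrays 1 and 2, and its part in the values of Lac was not tested. With either pair left out, the count of genes called between RasV12 and CL8 stayed at 8 or 9.

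The other components of the junction were less uniform than the adhesion genes above. Of 18 listed, 14 were measured (Mcr, Fas3, Fas2 and Atpalpha were not analysed here). In RasV12 against CL8, 3 rose and 3 fell, beside 11.3% and 38.6% of all probe sets, and 8 did not pass. Rescaled, 9 were higher and 1 lower, beside 35.5% and 29.8%. Of those higher rescaled, Ssk, bark and mesh lay within the background controls in both lines, with rescaled differences of 0.20, 0.10 and 0.10. In both scalings 3 were higher and 1 lower, the last being hoka, within the controls, and 11.3% and 25.6% of all probe sets were so called. Nrg, whose product neuroglian is an adhesion protein that joins the complex of Nrx-IV and Cont, read 12.58, 12.60 and 12.23 on RasV12 arrays, 9.08 on the L2 array, and 11.11, 10.60, 11.08 and 11.02 on CL8 arrays. The lines were separated in the order seen for Gli, with RasV12 higher than CL8 by 1.52 (adjusted p = 6.39e-05; 2.27 rescaled) and L2 lower than CL8 by a difference of -1.87 (adjusted p = 0.000491; -1.20 rescaled). Tsf2, which encodes the iron-binding melanotransferrin of the junction, was higher in RasV12 than in CL8 by 1.45 (adjusted p = 7.2e-06; 2.26 rescaled). udt, needed for the septate junction, was higher by 0.83 (adjusted p = 0.00182; 1.59 rescaled) and is named for its differences with L2, below. The fall of nrv1, another beta subunit gene of the sodium pump (-0.88, adjusted p = 0.00119), and of pasi1 (-0.99, adjusted p = 0.00785), a membrane protein gene of the junction, was not called when rescaled (-0.11 and -0.66).

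Between L2 and CL8 these components differed in both directions. In L2 against CL8, 6 were called higher and 4 lower, beside 38.3% and 23.6% of all probe sets. Of these, 2 and 4 were called in both scalings (15.8% and 11.7% of all probe sets). Among those higher, Ssk, bark, hoka and mesh lay within the background controls in both lines, and Ssk was higher in both scalings. udt read 4.74 in L2 and 7.71 as the mean of CL8, a difference of -2.96 (adjusted p = 4.99e-05; -3.25 rescaled). M6, which encodes a proteolipid protein that works with Gli at tricellular contacts, differed by -2.35 (adjusted p = 2.7e-05; -1.78 rescaled), and its second probe set by -1.17 (adjusted p = 0.00231). Between RasV12 and CL8 the probe sets of M6 gave 0.02 (adjusted p = 0.854) and 0.82 (adjusted p = 0.00105), so they disagree on a call as deposited. Rescaled, both were called higher in RasV12, at 0.85 (adjusted p = 0.000456) and 1.46 (adjusted p = 0.000179). pasi2 differed by -2.01 (adjusted p = 0.000604; -1.41 rescaled), while nrm, an adhesion protein gene of the immunoglobulin superfamily, was higher in L2 by 1.89 (adjusted p = 0.000425; 1.57 rescaled). In RasV12 against L2, 5 were higher and 3 lower in both scalings (9.53% and 25.9% of all probe sets), with udt higher in RasV12 by 3.79 (4.83 rescaled), Nrg by 3.39 (3.47 rescaled), M6 by 2.37 (2.62 rescaled) and pasi2 by 2.14 (2.36 rescaled). The components of the smooth septate junction of the gut, Ssk, mesh, Tsp2A and hoka, lay within the background controls in every line, as did bark, which encodes a further tricellular protein.

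Of the genes listed here under assembly and trafficking of the junction, bou and Clic were lower in RasV12 than in CL8 in both scalings. The listing of Clic is not evidence that it acts in the junction. Of 9 measured of 11 listed, 0 were higher and 5 lower in RasV12 against CL8 as deposited, beside 11.3% and 38.6% of all probe sets (limma). Rescaled, 4 were higher and 3 lower, beside 35.5% and 29.8%. In both scalings 0 were higher and 3 lower, beside 11.3% and 25.6%, so these counts do not set the list apart. wun, a lipid phosphate phosphatase gene, was called lower as deposited (-0.46, adjusted p = 0.00476) and higher rescaled (0.26, adjusted p = 0.0268), and has no settled direction. bou, one of the Ly6 proteins needed to assemble the junction, had the largest difference on the list. It read 4.06, 4.41 and 4.54 on RasV12 arrays, 4.86 on the L2 array, and 8.65, 9.30, 9.43 and 9.32 on CL8 arrays. It was lower in both other lines than in CL8, by differences of -4.84 ± 0.20 in RasV12 (adjusted p = 7.48e-07; -4.33 rescaled) and -4.31 ± 0.30 in L2 (adjusted p = 3.93e-05; -4.54 rescaled). The remaining Ly6 genes crok, crim and cold were not called between RasV12 and CL8 as deposited, at 0.24, 0.46 and 0.36, and were all called higher rescaled, at 0.97, 0.97 and 1.18. In L2, crim lay within the controls and was at least 4.52-fold lower than in CL8 (adjusted p = 0.00218). RasV12 exceeded L2 in crim by at least 6.22-fold (adjusted p = 0.00102) and in crok by 1.38 (adjusted p = 0.00158; 1.98 rescaled). Clic, a chloride channel gene, was lower in RasV12 than in CL8 (-1.86, adjusted p = 8.45e-06; -1.18 rescaled). shi, which encodes dynamin, was lower as deposited only (-0.94, and -0.20 rescaled). grh, which encodes the epithelial transcription factor grainy head, differed by -0.58 between RasV12 and CL8 (adjusted p = 0.0446; -0.46 rescaled), with overlapping arrays, and was higher in L2 than in CL8 by 1.41 (adjusted p = 0.00615; 1.38 rescaled). For L2 against CL8 this list had 1 gene higher and 6 lower, where 38.3% and 23.6% of all probe sets were so called (1 and 4 rescaled, beside 20.2% and 17.4%). For RasV12 against L2 it had 3 higher and 2 lower, where 9.57% and 44.1% were so called (5 and 2 rescaled, beside 22.0% and 26.0%).

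**Figure D4:**
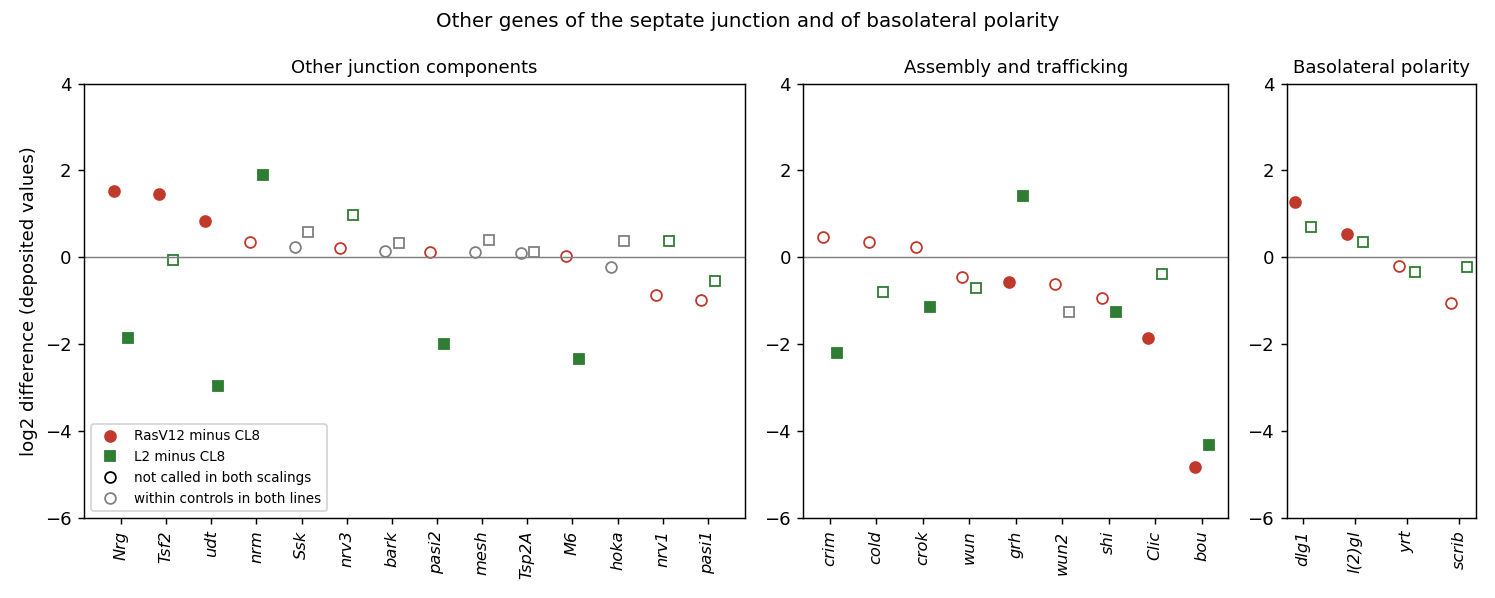
Log2 differences as deposited of other junction components, assembly and trafficking genes and basolateral polarity genes; circles are RasV12 minus CL8 and squares L2 minus CL8, filled where limma called the gene in the same direction in both scalings and grey where the gene lay within the background controls in both lines. bou is low in both lines relative to CL8, while Nrg and udt lie above 0 in RasV12 and below 0 in L2.

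Of the basolateral polarity genes, whose products share the lateral membrane with the junction, dlg1 and l(2)gl were higher in RasV12 than in CL8 in both scalings. Of 4 measured, 2 were higher and 1 lower as deposited, beside 11.3% and 38.6% of all probe sets, and 3 were higher and 0 lower rescaled, beside 35.5% and 29.8%. dlg1 was higher by 1.27 (adjusted p = 0.0112; 1.72 rescaled) on the probe set above the controls, and l(2)gl by 0.54 (adjusted p = 0.00859; 1.31 rescaled). scrib had no settled direction, at -1.04 (adjusted p = 0.00124) on one probe set and 0.58 (adjusted p = 0.0571) on the other. Neither L2 against CL8 nor RasV12 against L2 gave a call held in both scalings. The luminal chitin deacetylase genes serp and verm, whose proteins are secreted through a route that needs the junction, were not above the controls in RasV12 or L2.

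Markers of other cell types moved between the lines as well, and their part in the differences of the junction genes was not tested. Of all probe sets, 11.3% were called higher and 38.6% lower in RasV12 against CL8 (35.5% and 29.8% rescaled), which the counts below stand beside. Of 10 genes of the adherens junction and the apical membrane, 2 were higher and 4 lower (6 and 2 rescaled). Among those higher, sdt was so called on its brightest probe set (0.31; 0.35 rescaled), but its probe sets disagreed. Those at -0.76 and -1.43, within the controls in RasV12 only, were called lower in both scalings (-0.76 and -1.48 rescaled). The remaining probe sets of sdt lay within the controls in both lines. crb, which encodes the apical determinant crumbs, was lower in RasV12 (-2.64, adjusted p = 4.16e-06; -1.88 rescaled). ed, an adhesion protein gene, was called lower on its brightest probe set only (-1.68, adjusted p = 0.000716; -0.83 rescaled). Its other probe sets, at -0.84, -0.31 and -0.59, were not called in either scaling. shg, which encodes E-cadherin, was higher by 1.11 (adjusted p = 0.000297; 1.77 rescaled). The mean level over this list was 8.23 to 8.32 on RasV12 arrays, 7.89 on the L2 array and 8.59 to 8.85 on CL8 arrays. Rescaled, the order of RasV12 and CL8 turned, at 8.60 to 8.70 in RasV12, 7.89 in L2 and 8.29 to 8.55 in CL8. Of 7 glial markers, which include nrv2, 3 were higher and 1 lower, and the mean level was 6.02 to 6.10 in RasV12, 6.06 in L2 and 5.55 to 5.89 in CL8. Rescaled, the glial list read 6.23 to 6.30 in RasV12, 5.76 in L2 and 5.58 to 5.76 in CL8, so L2 was level with RasV12 only as deposited. The defining glial gene repo was at 3.50 in RasV12, 3.82 in L2 and 3.38 in CL8, at or near the highest background control. Of 8 hemocyte markers 2 were higher and 5 lower, of 4 mesoderm markers 2 were higher and 1 lower, and of 4 neuronal markers 3 were higher and 0 lower. Of the neuronal markers called higher, only elav was above the controls in both lines (1.83; 2.28 rescaled). nSyb lay within the controls in both lines and brp in CL8, with brp at 3.66 in RasV12. The other probe sets of brp, within the controls, were not called as deposited (0.08 and 0.14). The hemocyte list averaged 6.05 to 6.38 on RasV12 arrays, 9.10 on the L2 array and 7.93 to 8.23 on CL8 arrays, the mesoderm list 6.66 to 6.73, 6.14 and 3.55 to 4.18 in this order, and the neuronal list 4.44 to 4.72, 4.89 and 3.07 to 3.94. The mesoderm list did not move as one: htl and twi were higher in RasV12 than in CL8, by 6.15 and 6.52. bap was lower there (-0.74; -0.76 rescaled) and within the controls in RasV12, and sna lay within the controls in every line. Rescaled, the neuronal list read 4.63 to 4.87 in RasV12, 4.58 in L2 and 3.30 to 3.88 in CL8, which turned the order of RasV12 and L2.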

How the data were processed

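Expression was measured on 8 one-colour arrays, 3 of RasV12, 1 of L2 and 4 of CL8, grouped by sample title. The deposited values are log2 expression values that the authors computed with GCRMA, per the series' design text. GCRMA corrects for background by the GC content of probes, normalizes arrays and summarises probe sets. The sources name neither its version nor whether all arrays passed through 1 run.

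The tests ran on 13966 probe sets, after 44 Affymetrix controls had been removed. Names came from the platform annotation, updated by gene identifier through RefSeq (Release 6 plus ISO1 MT): 12443 probe sets had 1 gene, 327 several and 1196 none, and 12394 matched a RefSeq gene. A gene was read from its probe set with the highest mean. Differences were tested in 1 fit of all arrays with limma 3.58.1 in R 4.3.3, without a replicate block, with Benjamini-Hochberg adjustment over all probe sets and a threshold of 0.05. A line was within the background controls unless most of its arrays exceeded the highest control. For a fold against such a line, each of its arrays was raised to that control where it read lower, and the fold is written "at least". Precision is limited by how few arrays there are: the median SE was 0.114 between RasV12 and CL8, 0.167 between L2 and CL8 and 0.172 between RasV12 and L2. The fit was tested on simulated data.

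The 10 genes and all lists were chosen with earlier results of these data known. Named are all 10, and from each other list up to 4 called genes with the largest difference per comparison. Not every gene so chosen is printed, and udt (RasV12 against CL8), wun, the Ly6 genes, bark, the genes of the smooth junction, serp, verm, sdt, sna and repo were named in addition. Alternatives were quantile normalization, a filter on dim probe sets, other rules for genes with several probe sets, leaving out arrays, a replicate block, fits of the compared lines alone and an intensity trend in eBayes.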

Additional observations from a re-analysis of the deposited data

Results flagged for a closer look

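The groups of RasV12 and L2 arrays were too small for a check of single arrays, so that only the 4 CL8 arrays of each gene were checked. CL8 array 1 stood apart for nrv2, at 8.40 where the other CL8 arrays read 9.08 to 9.21, with a gap that was 0.840 of the whole range. It also stood apart for sinu, at 5.77 against 5.92 to 5.94 on the other CL8 arrays, with a gap that was 0.908 of the range. Such a gap arises by chance in about 1 of 20 groups, and 10 genes were checked. Without CL8 array 1 both genes kept their call between RasV12 and CL8.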

How the results depend on the processing

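Between RasV12 and CL8 the count of called genes was 8 and ranged from 7 to 10 over all alternatives, and it was 8 with each single array left out in turn. Between RasV12 and L2 it was 8 or 7, and between L2 and CL8 it was 4 and ranged from 3 to 6. Among the 10 genes, directions turned only in differences that were not called as deposited. With CL8 arrays 3 and 4 alone, kune differed by -0.0027 between RasV12 and CL8 and by -0.10 between L2 and CL8, and Lac by -0.71 between L2 and CL8. When single arrays were left out, Lac ranged from -0.24 to 0.31 in L2 against CL8. Rescaled, Cont differed by 0.27 and vari by -0.27 between L2 and CL8. The cause of these turns was not tested. Among the 10 genes, Nrx-IV in L2 against CL8 was the only called difference to lose its call, in 10 alternatives. Genes of the other lists lost or turned calls on rescaling, wun, nrv1, pasi1, shi, alpha-Cat and loco among them. Rescaling raised the share of higher calls among all called probe sets to 54.4%, from 22.7% as deposited, in RasV12 against CL8, and to 45.9% from 17.8% in RasV12 against L2. In L2 against CL8, 8636 probe sets were called as deposited and 5245 rescaled. In both scalings 2200 were called higher and 1628 lower. RasV12 and CL8 arrays share replicate numbers, but arrays of the same number did not deviate together (r of -0.252, -0.137 and -0.0938 over all probe sets). With the replicate number as a block, 8 genes were called, 6 higher and 2 lower, and 6334 probe sets in place of 6969. No paired analysis was possible for L2 because it has 1 array with no number. Each gene had 1 probe set, so the rule for choosing among probe sets changed no value of the 10 genes. vari is limited by signal over background.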

Other observations

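wun2, a lipid phosphate phosphatase gene from the assembly list, was the gene most divided within CL8 among those described. It read 4.31, 4.42 and 5.004 on RasV12 arrays, 3.93 on the L2 array, and 2.74, 2.66, 7.77 and 7.65 on CL8 arrays. CL8 arrays 3 and 4 were thus far above the controls, and arrays 1 and 2 within them, the same division of arrays as for Lac. Its difference between RasV12 and CL8, -0.62 ± 1.38 (SE), was not called.

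Of the genes with 1 annotated gene, those whose values over the 8 arrays were nearest to a septate junction gene, after each was centred on its own mean, were found for the 3 members whose line means spanned over 2. For Lac these were slow, with a root mean square difference of 0.372, and CG6357, with 0.404. For Gli they were nuf (0.309) and CG46339 (0.335), and for pck they were Cftr (0.170) and JTBR (0.185). nuf averaged 12.38 in RasV12, 7.66 in L2 and 10.24 in CL8, the same order of lines as Gli. With 3 lines, many genes share any one order, and these likenesses are descriptions of the arrays.

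Among the blood cell markers, PPO1, a prophenoloxidase gene, stood at 11.28 in L2, against 4.31 as the mean of CL8, a difference of 6.97 (limma adjusted p = 6.72e-08; 7.16 rescaled), and RasV12 differed from L2 by -7.67 (-7.81 rescaled). The list did not move as one in L2 against CL8. There eater went the other way, at -4.24 (-3.69 rescaled), and srp differed by -0.01 (0.53 rescaled).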
